A study of Sus scrofa with 8 samples.

Results

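The genes described here were the 6 ligands of the epidermal growth factor (EGF) family EGF, AREG, EREG, HBEGF, TGFA and BTC, and the 4 ERBB receptors EGFR, ERBB2, ERBB3 and ERBB4. They were chosen by name, as all rows of the deposited gene table that carry 1 of these 10 symbols, and the rows of a gene were summed. All 10 were found among 30282 genes, 9 by the symbol in the table and BTC, which has no symbol there, by its gene ID. All 10 were also among the 14475 genes that passed the filter on low counts and were tested.

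RNA was sequenced from porcine pancreatic ductal organoids (PPDO), hollow epithelial cultures grown in extracellular matrix from duct fragments of German landrace pigs, either wild-type or carrying an INS-eGFP reporter. Each of 4 lines was grown for a week in complete medium and in differentiation medium, with 1 library per line and medium, which gave 4 libraries in each of the 2 media and 8 in all. Line Em came from an embryo, EPN1 and EPN2 from early postnatal pigs and LPN from a late postnatal pig. The EPN stage was represented by 2 lines and the other stages by 1 line each, so that stage and line cannot be told apart for Em and LPN.

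Complete medium contained WNT3a, R-spondin 1, noggin, FGF10, human EGF, gastrin I and prostaglandin E2, and differentiation medium lacked all of them. To maintain the organoids, the methods put a conditioned medium supplement (L-WRN) in place of recombinant WNT3a, R-spondin 1 and noggin. They do not say which of these forms the sequenced cultures received. Both media contained N2, B27, nicotinamide, N-acetyl-L-cysteine, the TGF-beta receptor inhibitor A83-01 and the ROCK inhibitor Y-27632. Because EGF was withdrawn together with the other factors, what its own withdrawal did cannot be told apart from what theirs did. A sample field of the records names endocrine induction medium for all 8 libraries, and the media were therefore taken from the sample titles.

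ERBB receptors are tyrosine kinases that work in pairs. EGF, AREG and TGFA bind EGFR, HBEGF, BTC and EREG bind EGFR and ERBB4, and the neuregulins bind ERBB3 and ERBB4, while ERBB2 has no known ligand of its own and serves as a partner of the others. The ligands are made as membrane-anchored precursors that metalloproteases cut loose, and an active receptor signals through RAS and the MAP kinase cascade, whose targets include both transcription factors and brakes on the same pathway. In the pancreas the pathway is known for its part in the growth of ductal and progenitor cells.

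Library totals were 40553627 to 47910680 estimated counts, and values are given below as CPM, the count of a gene scaled to a common library size, after TMM normalization. A count of 0 in a library would allow up to 0.0626 to 0.0740 CPM, and counting error is the only error that this limit covers. CPM is not adjusted for transcript length, so levels are compared between libraries and not between genes. In each sentence that lists libraries the order is Em, LPN, EPN1 and EPN2. Markers of ductal epithelium, 8 genes, summed to 9112, 7025, 6571 and 6690 CPM in complete medium. In differentiation medium they summed to 14138, 5469, 9792 and 3823 CPM. Members of this list went in different directions. CDH1 was higher in differentiation medium in 4 of 4 lines, in EPN2 with 1569 and 2503 CPM. Every other duct marker was lower in EPN2 in differentiation medium, among them CFTR, with 85.2 and 2.97 CPM. Markers of basal epithelium varied more between lines than between media, with sums of 1052, 6865, 2013 and 10072 CPM in complete medium. In differentiation medium the sums were 718, 7021, 2536 and 13518 CPM. The lines thus differed in their levels of duct and basal markers. Acinar markers summed to at most 1.85 CPM and stromal markers to at most 8.95 CPM, and the acinar factor PTF1A had no count. Immune markers lay between 7.98 and 94.4 CPM and endothelial markers between 15.7 and 44.0 CPM. Endocrine markers reached 21.3 CPM in Em in differentiation medium and at most 2.40 CPM in the other libraries.

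The 3 ligand genes EREG, AREG and BTC lie next to each other on chromosome 8 of Sscrofa11.1, according to RefSeq, at 70351316 to 70372530, 70417935 to 70428106 and 70645721 to 70697538. They span 346 kb, and no other gene of the RefSeq table lies between them. Outside this span, EPGN, another ERBB ligand gene but without a match among the counted genes, is at 70266867 to 70301250. EGF is on the same chromosome at 112235607 to 112330062, HBEGF on chromosome 2 at 142102455 to 142115192 and TGFA on chromosome 3 at 71948232 to 72054257. The receptors are on separate chromosomes, with EGFR on 9 at 139302410 to 139474632, ERBB2 on 12 at 22591621 to 22621384, ERBB3 on 5 at 21474218 to 21495040 and ERBB4 on 15 at 113966573 to 115096984.

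The first question was which ligands and receptors differed between media. In edgeR's quasi-likelihood test with medium as the only term, 1 of the 10 genes passed an adjusted p of 0.05, the receptor ERBB4, which was higher in differentiation medium. Across all genes tested 6.97% passed, 2.87% higher and 4.10% lower. At an unadjusted p under 0.05 the number was 5 of 10, against 27.3% of all genes. With the line as a replicate block, which pairs the libraries of the same animal, 3 of 10 passed, the ligands AREG and HBEGF lower and ERBB4 higher, against 19.9% of all genes (9.49% higher and 10.4% lower). DESeq2 gave 3 of 10 without the block (EGF and ERBB4 higher, AREG lower, against 18.5% of all genes, 9.14% higher and 9.34% lower) and 5 of 10 with it (EGF and ERBB4 higher, AREG, EREG and HBEGF lower, against 33.8% of all genes, 17.6% higher and 16.2% lower). The median log2 difference, differentiation minus complete medium, was -0.47 over the 6 ligands, 0.38 over the 4 receptors and 0.01 over all genes tested.

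**Figure D1:**
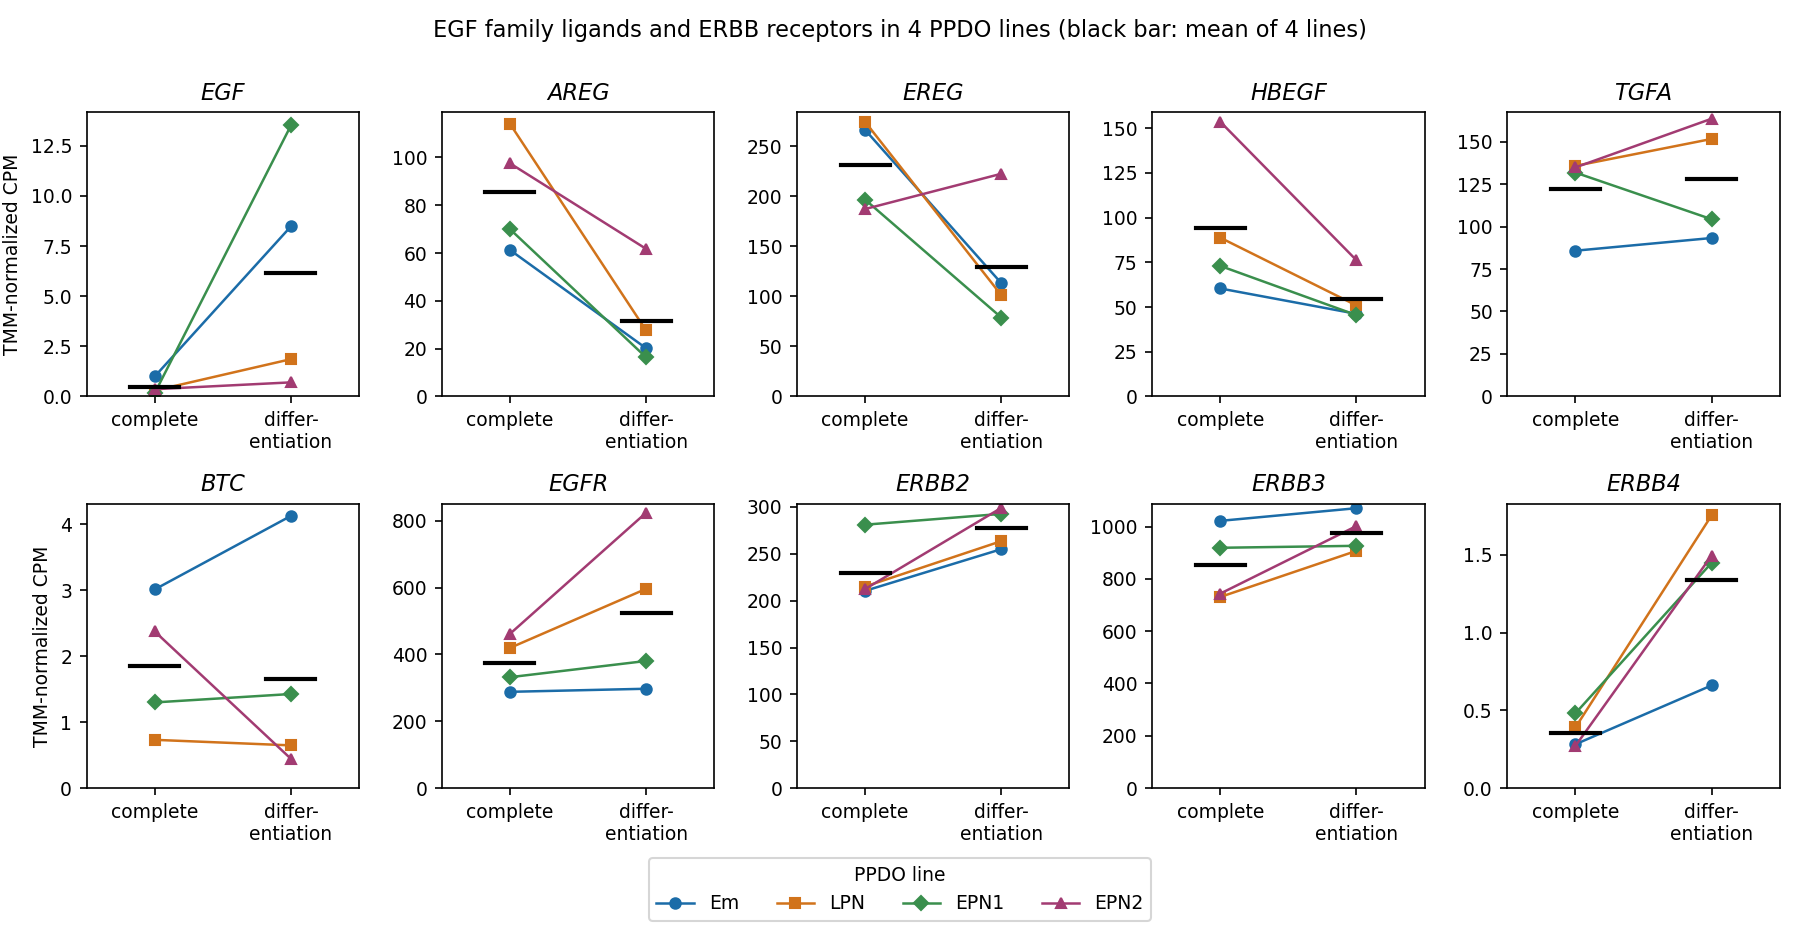
TMM-normalized CPM of each of the 10 genes in each library, on linear axes that start at 0, with a line joining both media of the same organoid line and a black bar at the mean of the 4 lines. ERBB4 is the gene whose media do not overlap, AREG and HBEGF are lower in differentiation medium in 4 of 4 lines, and for EREG the EPN2 line alone runs upward.

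All 4 receptors were higher in differentiation medium in 4 of 4 lines, which held for 23.9% of all genes tested. Among the ligands EGF was higher in 4 of 4 lines, AREG and HBEGF were lower in 4 of 4, a pattern that 24.2% of all genes showed, and EREG, TGFA and BTC differed in direction between lines. ERBB4 was the only one of the 10 genes whose values did not overlap between media, against 8.82% of all genes that were higher without overlap. None of the 10 was lower without overlap, against 9.96% of all genes.

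AREG encodes amphiregulin, an EGFR ligand of epithelial cells that is itself induced by EGFR signalling. It had 61.3, 114, 70.0 and 97.6 CPM in complete medium and 20.2, 27.6, 16.3 and 61.7 CPM in differentiation medium. Each line had less of it without the factors, and the media overlapped only because EPN2 in differentiation medium was just above Em in complete medium. The mean was 85.7 ± 24.4 CPM (SD, n = 4) in complete and 31.5 ± 20.7 CPM (SD, n = 4) in differentiation medium. The log2 difference was -1.45 ± 0.43 (SE), with a 95% confidence interval of -2.45 to -0.45 and an adjusted p of 0.0838 in edgeR. When the line was added as a block, AREG fell by 1.61 ± 0.27 on the log2 scale, at an adjusted p of 0.0201, and DESeq2 gave 0.0189 without the block and 2e-06 with it. The blocked call was lost without line Em (0.0531), LPN (0.0997) or EPN1 (0.0919). Within lines the log2 differences were -1.60, -2.05, -2.10 and -0.66, the smallest in size in EPN2. Without the EPN2 library in differentiation medium the adjusted p without the block was 0.0202 in edgeR. Leaving out any 1 of the other libraries gave 0.106 to 0.187. In bulk RNA, fewer cells that express a gene and less of its RNA per cell cannot be told apart, here and for every gene below.

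EREG encodes epiregulin, a ligand of EGFR and ERBB4 and the neighbour of AREG. It had 266, 274, 197 and 187 CPM in complete medium and 113, 101, 78.8 and 222 CPM in differentiation medium. In 3 lines the level in differentiation medium was below every library in complete medium, whereas EPN2 had more EREG in differentiation than in complete medium. The log2 differences were -1.23, -1.44, -1.32 and 0.25. Across the 4 lines the means were 231 ± 45.5 and 129 ± 64.0 CPM (SD, n = 4 each), a log2 difference of -0.84 ± 0.33 (SE), with a confidence interval of -1.59 to -0.09 and an adjusted p of 0.146 in edgeR. With the block the adjusted p was 0.0828 in edgeR, and DESeq2 gave 0.108 without and 0.0210 with it. Without the EPN2 library in differentiation medium EREG was lower by the edgeR test without the block, with a log2 difference of -1.24 and an adjusted p of 0.0256. Leaving out any 1 of the other libraries gave an adjusted p of 0.144 to 0.278 in that test. The EPN2 library in differentiation medium also had the lowest sum of duct markers and the highest sum of basal markers. The part of either in the result was not tested.

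BTC encodes betacellulin, also a ligand of EGFR and ERBB4. With 19 to 200 counts per library it was read at low depth, and it had 3.01, 0.731, 1.30 and 2.37 CPM in complete medium and 4.13, 0.647, 1.43 and 0.444 CPM in differentiation medium. The Em line was highest in both media, and EPN2 in differentiation medium was lowest of all 8 libraries. The log2 difference was -0.16, with a confidence interval of -1.91 to 1.59 and an adjusted p of 0.916 in edgeR, an interval that spans more than 2-fold in both directions. Within lines the log2 differences were 0.45, -0.18, 0.14 and -2.42. The counts of BTC in LPN, 30 and 31, do not separate the media. On chromosome 8, AREG was thus lower in differentiation medium in all 4 lines. EREG was lower in Em, LPN and EPN1 and higher in EPN2. By more than counting error, BTC was lower in EPN2 and higher in Em.

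HBEGF encodes heparin-binding EGF-like growth factor, a ligand of EGFR and ERBB4. Its levels were 60.4, 88.8, 73.0 and 154 CPM in complete medium and 46.2, 50.9, 45.5 and 76.2 CPM in differentiation medium. EPN2 was highest in both media, and its level in differentiation medium was above those of Em and EPN1 in complete medium. The log2 differences within lines were -0.39, -0.80, -0.68 and -1.01. The means were 94.0 ± 41.5 and 54.7 ± 14.5 CPM (SD, n = 4 each), and the log2 difference of -0.78 ± 0.31 (SE, confidence interval -1.50 to -0.06) had an adjusted p of 0.157 in edgeR. Without EPN2 in complete medium the log2 difference was -0.44. When the line was added as a block, HBEGF fell by 0.72 ± 0.13 on the log2 scale, with an adjusted p of 0.0225, and DESeq2 gave 0.127 without and 8e-05 with the block. The blocked call was lost without line LPN (0.120) or EPN1 (0.0947) and stayed without Em (0.0325) or EPN2 (0.0342).

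TGFA encodes transforming growth factor alpha, an EGFR ligand made by many epithelia. It had 85.8, 136, 132 and 135 CPM in complete medium and 93.2, 152, 104 and 163 CPM in differentiation medium. The ranges were nearly the same, and 3 lines had slightly more and EPN1 less in differentiation medium. The log2 difference was 0.07, with a confidence interval of -0.46 to 0.60 and an adjusted p of 0.872 in edgeR, an interval that stays within 2-fold in both directions. Of the counts of TGFA, 70.9% (69.7% to 72.4% per library) came from a row for an extension of the annotated gene, whereas such rows held at most 1.32% of the counts of any other of the 10 genes.

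EGF encodes the ligand that was also present as human protein in complete medium. Its transcript was scarce there, with 0.997, 0.292, 0.168 and 0.362 CPM from 46, 12, 7 and 16 counts. In differentiation medium it had 8.48, 1.86, 13.5 and 0.701 CPM from 411, 89, 597 and 30 counts. Each line had more EGF transcript in differentiation medium, by 8.51-fold, 6.35-fold, 80.3-fold and 1.94-fold, and the media overlapped because EPN2 in differentiation medium was below Em in complete medium. The fold of EPN1 rests on 7 counts in complete medium. The means were 0.455 ± 0.370 and 6.14 ± 5.99 CPM (SD, n = 4 each). The log2 difference was 3.74 ± 1.02 (SE), with a confidence interval of 1.40 to 6.09, larger than that of 99.4% of all genes tested, and an adjusted p of 0.0654 in edgeR. With the block the adjusted p was 0.0602 in edgeR, whereas DESeq2 gave 0.000512 without and 0.000363 with it. Without the block, edgeR gave 0.0407 when EPN2 in differentiation medium was left out. Leaving out any 1 of the other libraries gave 0.0796 to 0.163. Both the size and the call of this difference thus depended on the line and the test.

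**Figure D2:**
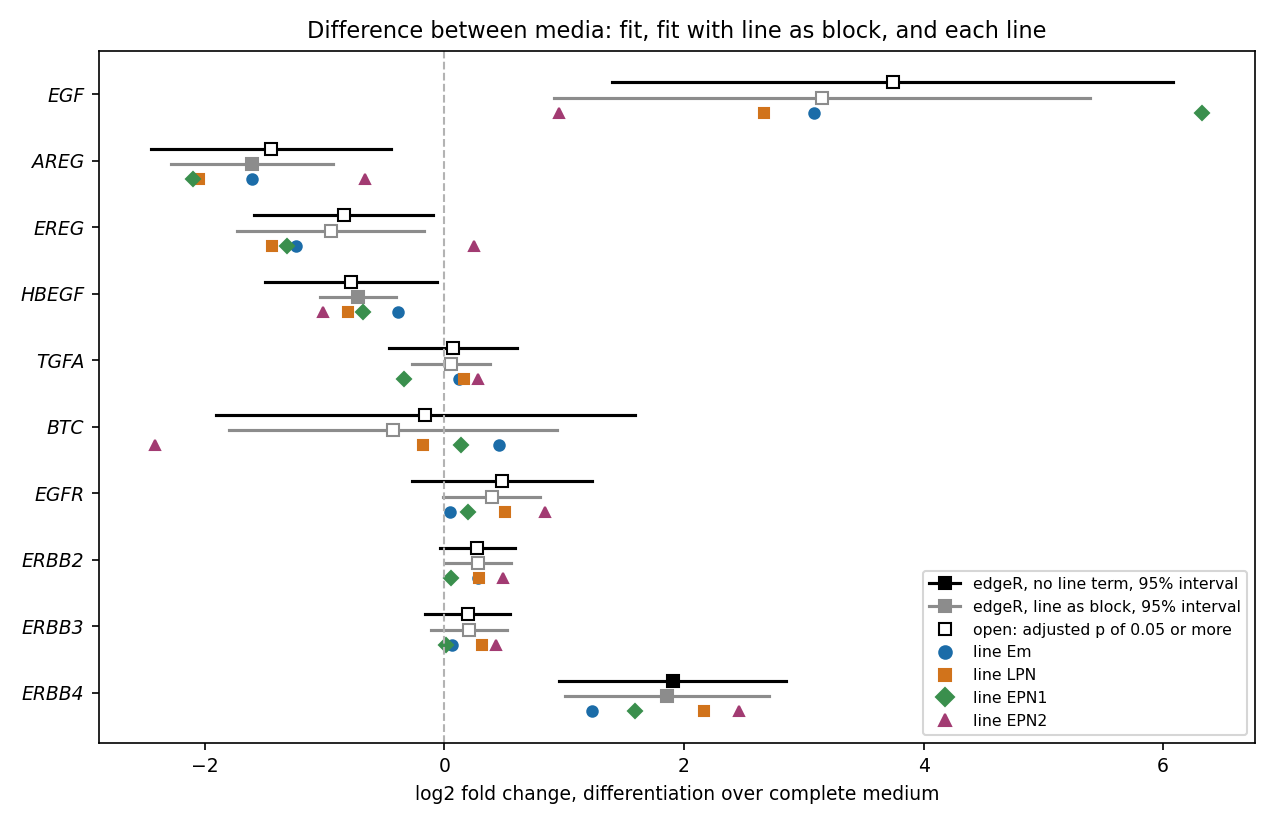
Log2 difference between media (differentiation minus complete) of each of the 10 genes, with the edgeR estimate and its 95% confidence interval without the block (black) and with it (grey), open where the adjusted p is 0.05 or more, and the difference within each of the 4 lines as coloured points. The estimates of the receptors all lie right of 0, the interval of ERBB4 without the block runs from 0.96 to 2.85, and the 4 lines of EGF spread from 0.95 to 6.33.

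ERBB4 encodes the receptor of neuregulins and of HBEGF, EREG and BTC. It had 0.282, 0.390, 0.481 and 0.271 CPM in complete medium, from 13, 16, 20 and 12 counts, and 0.660, 1.75, 1.45 and 1.49 CPM in differentiation medium, from 32, 84, 64 and 64 counts. Every library in differentiation medium was above every library in complete medium. ERBB4 rose 3.74-fold, from 0.356 ± 0.0991 to 1.34 ± 0.472 CPM (SD, n = 4 each), a log2 difference of 1.90 ± 0.41 (SE, confidence interval 0.96 to 2.85) with an adjusted p of 0.0373 in edgeR. With the block the adjusted p was 0.0236 in edgeR, and it was 0.000159 and 9.8e-05 in DESeq2 without and with it. The rise was 2.34-fold in Em, 4.50-fold in LPN, 3.01-fold in EPN1 and 5.51-fold in EPN2. The call did not survive most omissions, although the direction did. Leaving out Em in differentiation medium kept it, with an adjusted p of 0.0377, and leaving out any of the other 7 libraries gave 0.0590 (EPN2 in differentiation medium), 0.0617 (EPN2 in complete), 0.0822 (EPN1 in complete), 0.0825 (Em in complete), 0.0940 (LPN in differentiation), 0.102 (LPN in complete) and 0.107 (EPN1 in differentiation medium). Without a filter on low counts it was 0.0783. Without a whole line and with the block it was 0.0415 (Em), 0.127 (LPN), 0.0948 (EPN1) and 0.0448 (EPN2). With 1 library left out and no block, the log2 difference of ERBB4 was 1.75 to 2.13. In those fits 70 to 1199 of all genes passed, against 1009 with all libraries.

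EGFR encodes the receptor of EGF itself. Its levels were 288, 420, 332 and 462 CPM in complete medium and 297, 596, 381 and 824 CPM in differentiation medium. The lines stood in the same order in both media, EPN2, LPN, EPN1 and Em from highest to lowest, and the difference between media was near 0 in Em, with log2 differences of 0.05, 0.51, 0.20 and 0.84. The means were 375 ± 79.3 and 525 ± 236 CPM (SD, n = 4 each). The log2 difference was 0.48, with a confidence interval of -0.27 to 1.24 and an adjusted p of 0.371 in edgeR, or 0.132 with the line as a block. Without EPN2 in differentiation medium the log2 difference was 0.18.

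ERBB2, the partner without a ligand, had 211, 215, 281 and 212 CPM in complete medium and 255, 264, 293 and 299 CPM in differentiation medium. The media overlapped only through EPN1, which had the highest level in complete medium. The log2 difference was 0.27, with a confidence interval of -0.04 to 0.59 and an adjusted p of 0.235 in edgeR, or 0.124 with the line as a block, and DESeq2 with the block gave 0.0519. ERBB3, the neuregulin receptor whose own kinase is nearly inactive, had 1022, 731, 919 and 744 CPM in complete medium and 1070, 907, 927 and 1002 CPM in differentiation medium. It had the smallest log2 difference of the receptors, 0.19, with a confidence interval of -0.16 to 0.55 and an adjusted p of 0.451 in edgeR. Without Em in complete medium this difference was 0.31, and without LPN in complete medium 0.12. The estimated counts of ERBB3 were not whole numbers in 8 of 8 libraries, and those of EGFR and ERBB2 in 5 of 8. Salmon can write such values where reads are divided between transcripts, but the source of these was not tested.

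**Figure D3:**
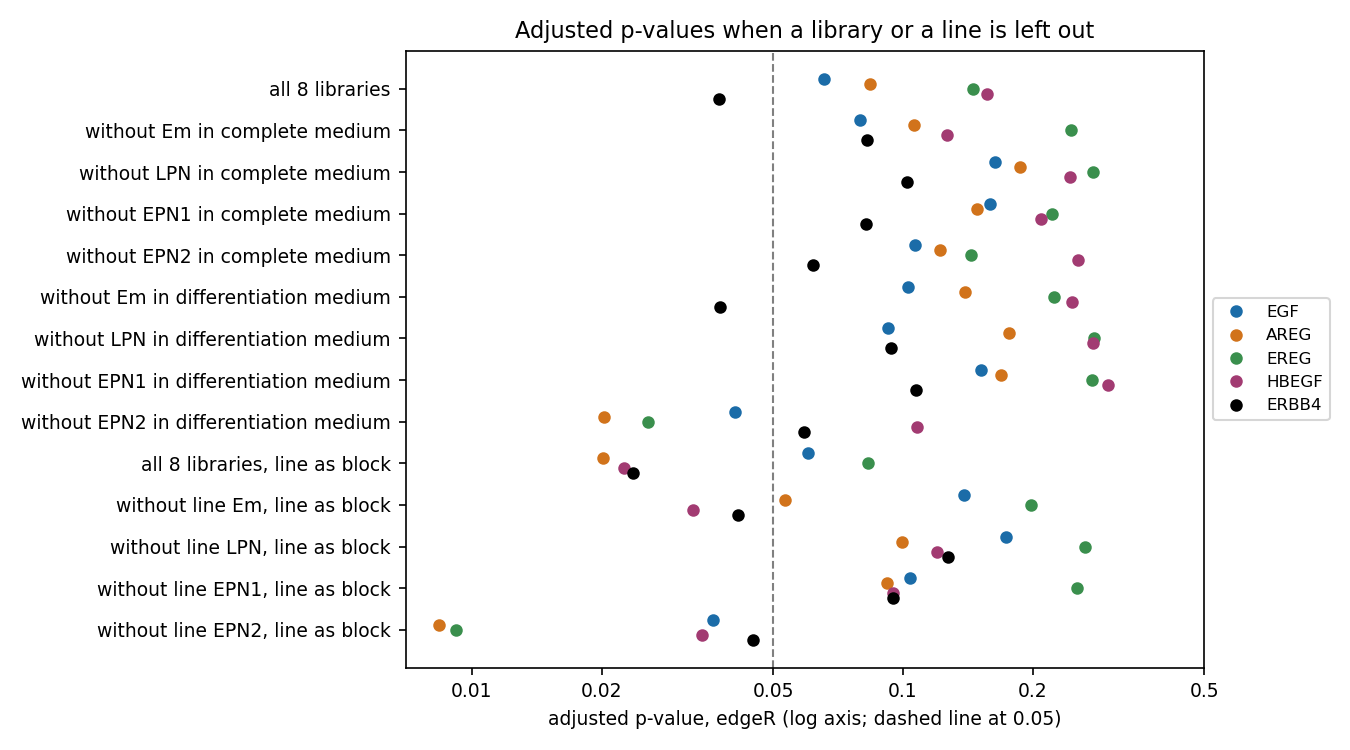
Adjusted p of EGF, AREG, EREG, HBEGF and ERBB4 in edgeR on a log axis, with all 8 libraries, with each library left out, and, with the line as a block, with all lines and with each line left out. Of the fits without the block shown, EGF, AREG and EREG pass the threshold of 0.05 (dashed line) only without EPN2 in differentiation medium, and ERBB4 passes only with all libraries or without Em in differentiation medium.

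The second question was whether the lines differed, with the medium held in the model. In edgeR 0 of 10 genes passed, against 5.14% of all genes, and 4 of 10 had an unadjusted p under 0.05, against 28.2% of all genes. DESeq2's likelihood ratio test called these 4, HBEGF, EGFR, AREG and TGFA, against 27.4% of all genes. HBEGF had the lowest adjusted p of the 10 genes, with values of 0.0683 in edgeR and 4.1e-05 in DESeq2. The highest line, EPN2, had 2.54 times the HBEGF of the lowest in complete medium and 1.67 times in differentiation medium. For EGFR the adjusted p was 0.104 in edgeR and 0.00183 in DESeq2, and EPN2 exceeded Em 1.60-fold in complete and 2.77-fold in differentiation medium. Em was the lowest line for TGFA and EGFR in both media. The sum of basal markers was likewise lowest in Em and highest in EPN2 in both media, and its part in these values was not tested. For TGFA the adjusted p was 0.138 in edgeR and 0.0311 in DESeq2, and for AREG 0.165 and 0.0298. With 1 library per line and medium, whether the lines responded to the medium differently could not be tested.

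Over the 8 libraries, which are 4 lines in 2 media and therefore not independent, the Pearson correlation of log2 CPM was 0.91 for the neighbours AREG and EREG and -0.94 for EGF and AREG, among 45 pairs. TGFA and EGFR had 0.86 and TGFA and BTC -0.84. Outside the family, the tested genes with the pattern most like that of EREG, the ligand with the highest CPM, were YWHAG and RAB6A at 0.97 and UACA at 0.96. For ERBB3, the receptor with the highest CPM, they were NUPR1 at 0.95 and ITIH1 and TUBB at 0.94. These values describe likeness over 8 libraries that share lines and media.

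The other genes of the pathway were counted on lists of known members, which were chosen with earlier results of these data known. The counts describe these lists and are not an independent test of them. Of 15 genes induced by EGF or acting in MAP kinase feedback, 7 fell in differentiation medium and 0 rose in edgeR without the block, against 4.10% and 2.87% of all genes. The median log2 difference of the list was -1.44, and 14 of 15 values were negative. With the line as a block 11 of 15 fell and 0 rose, against 10.4% and 9.49% of all genes. The transcription factors ETV4 and ETV5 differed most. ETV4 had 60.8, 140, 91.4 and 151 CPM in complete medium and 2.29, 8.39, 4.14 and 13.7 CPM in differentiation medium, a log2 difference of -3.95 with an adjusted p of 0.0167. ETV5 had 35.7, 37.6, 24.3 and 62.6 CPM against 1.11, 0.835, 1.02 and 5.60 CPM, a log2 difference of -4.23 with an adjusted p of 0.0213. Every library in complete medium was above every library in differentiation medium for both, as for 9.96% of all genes tested. The others that fell were the immediate early gene FOS (log2 difference -1.77), the ERK phosphatase DUSP6 (-1.44), the RAS pathway inhibitors SPRY2 (-1.08) and SPRED1 (-1.89), and PHLDA1 (-2.06, from 1 of its 2 gene IDs). The 4 more that fell with the block were SPRY4 (log2 difference without the block -3.33), another RAS pathway inhibitor, the AP-1 factor FOSL1 (-2.25), the phosphatase DUSP4 (-0.78) and SPRED2 (-0.44), with adjusted p values of 0.0237, 0.0126, 0.0268 and 0.0386 in that fit. EGR1, another immediate early gene, had a log2 difference of -0.07 with an adjusted p of 0.935, and was higher in differentiation medium in LPN and EPN2 and lower in Em and EPN1.

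The number of these 15 genes that fell was 3 without LPN in complete medium, 4 without EPN1 in complete medium, 3 without LPN in differentiation medium and 2 without EPN1 in differentiation medium, and 6 to 9 without any 1 of the other 4 libraries. In the first 4 of these fits 171, 163, 177 and 70 of all genes passed, against 1009 with all libraries. Without a whole line, and with no block, it was 2 when Em was left out, 9 when EPN2 was, and 0 when either LPN or EPN1 was, while 149 of all genes passed without Em, 1207 without EPN2, 5 without LPN and 0 without EPN1. With the block the omission of EPN2 left 11, that of Em 8, that of LPN 1 and that of EPN1 0. How many of all genes passed in these blocked fits was not counted, so no share can be set beside these counts. FGF10 was withdrawn with EGF and signals through the same cascade, so that the 2 factors cannot be told apart in this list.

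**Figure D4:**
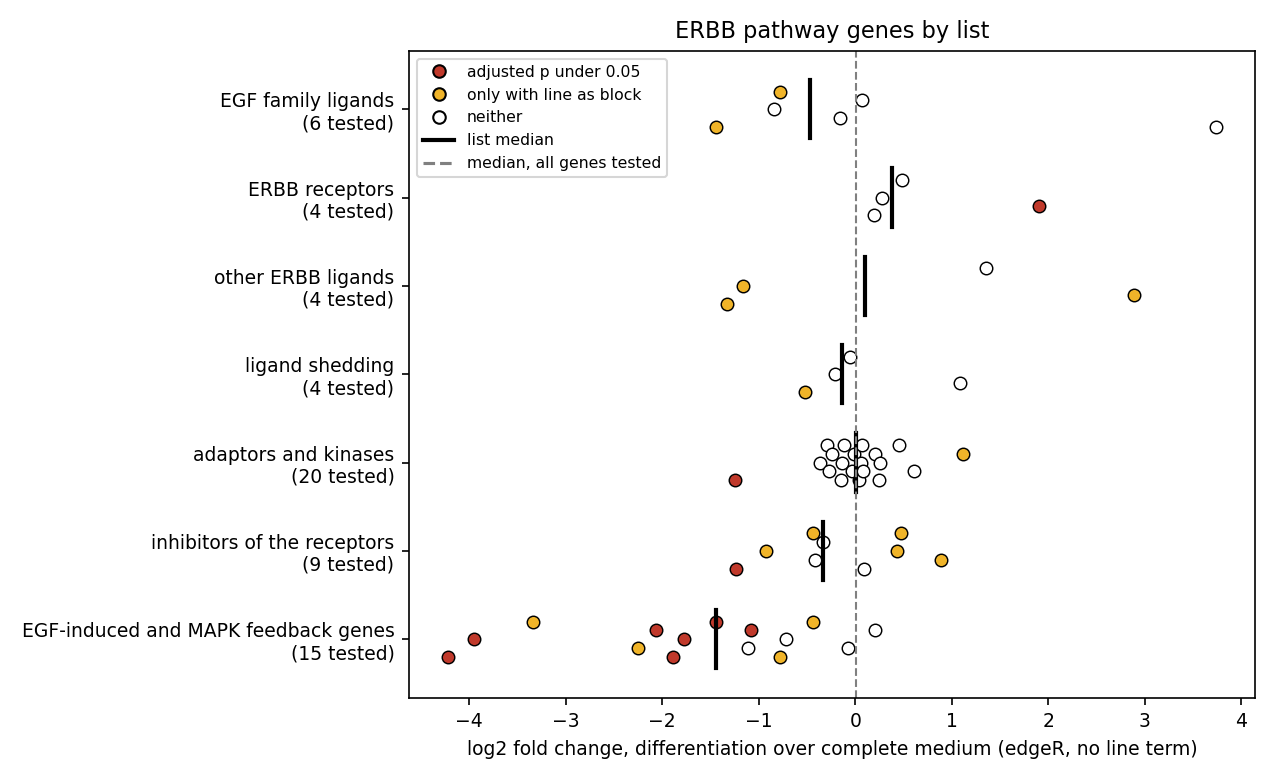
Log2 difference between media (differentiation minus complete) of each tested gene on the lists of ligands, receptors, other ERBB ligands, shedding, adaptors and kinases, receptor inhibitors and EGF-induced or feedback genes, red where the adjusted p is under 0.05, yellow where it is so only with the line as a block, with a bar at the median of each list and a dashed line at that of all genes tested. The feedback list has its median at -1.44 and 14 of 15 genes below 0, while the median of the adaptors and kinases is 0.01.

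Among 9 inhibitors of the receptors 1 fell, ERRFI1, which binds the EGFR kinase and blocks it, and 0 rose, against 4.10% and 2.87% of all genes. It had 361, 257, 314 and 213 CPM in complete medium and 161, 97.4, 123 and 105 CPM in differentiation medium. The media did not overlap, and 9.96% of all genes tested were likewise lower without overlap. The log2 difference was -1.23 with an adjusted p of 0.0230 in edgeR. That call was lost without Em in complete medium (0.0514), LPN in complete (0.0641), EPN1 in complete (0.0763), LPN in differentiation (0.0692) or EPN1 in differentiation medium (0.0789). With the line as a block 3 fell and 3 rose on this list, against 10.4% and 9.49% of all genes. ERRFI1, LRIG1 (-0.93 without the block), a membrane protein that promotes loss of EGFR, and the ubiquitin ligase CBLB (-0.44) fell, whereas LRIG3 (0.89), SOCS4 (0.47) and SOCS5 (0.43) rose. Their adjusted p values with the block lay between 0.00856 (ERRFI1) and 0.0413 (LRIG3). The list thus held genes in both directions, with a median of -0.34.

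Of 20 tested adaptors and kinases 1 fell, MAP2K1, which encodes the ERK kinase MEK1, and 0 rose, a share near the 4.10% of all genes that fell. It had 119, 82.6, 117 and 66.2 CPM in complete medium and 44.1, 38.9, 36.4 and 42.7 CPM in differentiation medium. All 4 libraries in differentiation medium were below those in complete medium, as for 9.96% of all genes tested, and lay close together. The means were 96.2 ± 26.1 and 40.5 ± 3.54 CPM (SD, n = 4 each), with a log2 difference of -1.25 and an adjusted p of 0.0189 in edgeR. The call was lost without EPN1 in complete medium (0.0614), LPN in differentiation medium (0.0611) or EPN1 in differentiation medium (0.0734). PLCG1, a phospholipase recruited by active receptors, had a log2 difference of 1.12 with an adjusted p of 0.0581, and rose with the line as a block, with an adjusted p of 0.0112. The median of the list was 0.01, that of all genes.

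Of the other ERBB ligands 4 were tested, and 0 passed in edgeR without the block, against 6.97% of all genes. In that fit 1 (NRG3) had an unadjusted p under 0.05, against 27.3% of all genes. DESeq2 without the block called 1 (NRG3), against 18.5% of all genes. With the line as a block NRG1 and NRG2 fell and NRG3 rose, against 10.4% of all genes lower and 9.49% higher. DESeq2 with the block called the same 3, against 33.8% of all genes. The neuregulins NRG1 and NRG2, ligands of ERBB3 and ERBB4, were lower in differentiation medium in 4 of 4 lines, with log2 differences of -1.16 and -1.33 and adjusted p values of 0.0449 and 0.0236 with the block. NRG3, a ligand of ERBB4, had 7, 1, 0 and 5 counts in complete medium and 42, 11, 30 and 20 counts in differentiation medium, and its adjusted p with the block was 0.0424. Of 4 genes of ligand shedding 0 passed in edgeR without the block, against 6.97% of all genes. In that fit 1 (ADAM10) had an unadjusted p under 0.05, against 27.3% of all genes. DESeq2 without the block called 1 (ADAM10), against 18.5%. RHBDF2, a partner of the sheddase ADAM17, fell in edgeR with the block, at an adjusted p of 0.0306, against 10.4% of all genes lower. ADAM17 itself, the main sheddase of AREG, HBEGF and TGFA, had a log2 difference of -0.21. ADAM10, which sheds EGF and BTC, had 267, 155, 161 and 373 CPM in complete medium and 645, 379, 645 and 366 CPM in differentiation medium. It was higher by more than 2-fold in Em, LPN and EPN1 and not in EPN2, with an adjusted p of 0.0954 in edgeR.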

How the data were processed

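Poly(A) RNA of the 8 libraries was sequenced by the authors and quantified with salmon in an nf-core pipeline, and they deposited estimated counts (expected counts) per gene, labelled as raw. Of the values above 0, 78.6% are whole numbers. The methods of the study name counts scaled by gene length as the input of its own analysis, and whether the deposited values were so scaled could not be read from the file. The submitters' processing notes name the builds Sscrofa11.1 and GRCh38. Rows of a gene, extensions included (2.58% of all counts), were summed and rounded. Reporter transgenes made up 8 rows and 0.00142% of counts and were left out. Symbols came from the table, and for 623 genes from a table of gene IDs. No match was found for EPGN, AKT1 and KRT14. PHLDA1 matched 2 gene IDs, of which 1, named in the table, was used and the other was left out of its values.

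Media were taken from the sample titles and the column names, and lines from the column names, which pair the libraries by animal. After removal of the mean of each medium, libraries of the same line correlated at 0.397 to 0.655 (4 pairs) and those of different lines at -0.474 to 0.234 (12 pairs). Replicate numbers of the records were not matched to columns.

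Counts were tested in R 4.3.3 with edgeR 4.0.16 (filterByExpr, TMM factors 0.935 to 1.06, quasi-likelihood F-test, medium only), with p-values adjusted by Benjamini-Hochberg over all 14475 genes and a threshold of 0.05. The comparison of lines tested the line terms in an additive model with medium. Alternatives were the line as a replicate block, DESeq2 1.42.0 with and without it, its size factors, no filter, extensions left out, and omission of each library or line. The omissions for the list of feedback genes, ERRFI1 and MAP2K1 were added after their values were seen. All adjusted p values are from these fits. The scripts were tested on simulated data. CPM used TMM library sizes, and Python 3.11.15 with pandas 2.3.3, scipy 1.17.1 and matplotlib 3.10.9 made the tables and plots.

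All 10 genes were named, and of the pathway lists those past the threshold with or without the block and at most 4 others each. The 10 genes and the lists were chosen with earlier results of these data known. Each library is a separate culture of 1 line. The p-values without the block use the spread between libraries of the same medium, which includes that between animals. They treat libraries of the same line as independent, although these are paired. The p-values with the block use the pairing.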

Additional observations from a re-analysis of the deposited data

Results flagged for a closer look

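EREG differed in direction between lines. Its log2 difference, differentiation minus complete medium, was 0.25 in EPN2 and -1.23 in Em, -1.44 in LPN and -1.32 in EPN1. The log2 difference of TGFA was 0.12 in Em, 0.16 in LPN and 0.28 in EPN2, and -0.34 in EPN1. For BTC it was 0.45 in Em and -2.42 in EPN2. In each line named, the 95% counting intervals of the CPM before TMM normalization did not overlap between media. With 1 library per line and medium, the difference between lines was not tested.

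In complete medium 1 library stood apart from the other 3 for TGFA and for ERBB2. Em had 85.8 CPM of TGFA, with 132 CPM in the next library, and EPN1 had 281 CPM of ERBB2, with 215 CPM in the next. These were 2 of 20 groups of 4 libraries checked by Dixon's test, and chance alone marks about 1 in 20. Their cause was not tested.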

How the results depend on the processing

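The number of the 10 genes past the threshold between media, 1 in edgeR without the block, was 3 with the line as a replicate block, 3 in DESeq2 without the block, 5 in DESeq2 with it and 0 without the filter on low counts (5 at an unadjusted p under 0.05 with the filter). It ranged from 0 to 5 when a library or a line was left out, and was 3 (EGF, AREG and EREG) without EPN2 in differentiation medium and 5 without line EPN2 with the block. The number of all genes past the threshold, 1009, was 2885 with the block, 3023 and 5597 in DESeq2 without and with it and 506 without the filter. Without the block it ranged from 0 to 1207 when a library or a line was left out. For the omission of a line with the block it was not counted. Between lines, 0 of 10 genes passed in edgeR and 4 in DESeq2. DESeq2's size factors and omission of extensions left the call of ERBB4 and the count of 1 in place. The log2 difference of TGFA, 0.07, ranged from -0.066 to 0.20, and that of BTC, -0.16, from -1.14 to 0.30, when a library or a line was left out, and both changed sign in 5 of these 16 fits. The other 8 genes kept their direction in all alternatives run. The cause of these changes was not tested. With 12 to 20 counts of ERBB4 and 7 to 46 of EGF in complete medium, depth limits the precision of both folds.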
